A study of Mus musculus with 18 samples.

Results

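The tissue described here is the intestine of mice that received saline and carried no tumour, measured on 6 of the 18 arrays of the series. They were chosen by their labels alone: 3 arrays of male C57BL/6 mice fed SJW, which stands for the herbal medicine St. John's wort, and 3 of male C57BL/6 mice fed the control diet. All of them received saline. The other 12 arrays hold, for each diet, 3 of non-tumour tissue and 3 of tumours after azoxymethane (AOM), a carcinogen that induces intestinal tumours in rodents. Each array set the RNA of 1 sample, labelled with Cy5 (red), against one commercial pool of RNA, labelled with Cy3 (green). That pool, Ambion Mouse Assorted Total RNA, came from Swiss Webster mice and held thymus, spleen, testicle, ovary, lung, liver, kidney, heart, brain and embryo, but no intestine. The labels call the sample tissue small intestine, whereas the extraction protocol names liver. Since the marker genes below go against both, the tissue is called intestine here.

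A log2 ratio is the log2 of sample over pool: a value above 0 means more transcript in the intestine than in the mixed organs. The pool is 1 RNA preparation without replicates of its own, the mice and the pool are of different strains, and the dyes were not swapped. A ratio therefore leaves out the spread of the pool, and a dye or strain effect on a gene is part of its ratio. In bulk tissue, fewer cells of a type and less RNA per cell cannot be told apart. The arrays are biological replicates by the series design, which does not say whether each came from its own mouse, and p-values measure only the spread between these 6 samples.

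The lining of the gut is a single sheet of epithelial cells that is renewed from crypts and holds absorptive, mucus-secreting goblet, hormone-secreting enteroendocrine and chemosensory tuft cells. The small intestine digests and absorbs nutrients with brush border enzymes such as lactase and sucrase-isomaltase, and its crypts hold Paneth cells that secrete alpha-defensins. The large intestine recovers water and salt, takes up short-chain fatty acids made by bacteria and keeps a thick mucus layer. Its surface cells are known for carbonic anhydrases 1 and 4, the chloride and bicarbonate exchanger Slc26a3 and the water channel Aqp8.

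Over the 6 arrays the median red intensity was 155.5 to 375 and the median green intensity 218 to 544.5. In red, 72.7% to 83.7% of probes passed the scanner software's background test, with a red signal over background of 2.34 to 5.92. Log2 ratios correlated at 0.848 to 0.977 between arrays. Of 25973 genes tested, 17038 had a symbol. The pool channel was brighter on 4 saline arrays (SJW 1 and 3, control 2 and 3) than on the other 2. The array of control saline replicate 2 stood apart for genes far below the pool, and that of SJW saline replicate 3 for a block of 249 genes described further on.

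Promoters of genes high on every array are shown first, because these genes define the tissue described below. They are the 250 bases before the annotated start in the RefSeq promoter table of build GRCm38.p6, printed 5′ to 3′ on the strand of the gene, and capitals mark the motifs found. The table has 3 of the 4 region markers and not Car1. Guca2a and Muc2 were added for the absorptive and goblet cell programmes.
Slc26a3, chr12:31437969-31438218, + strand: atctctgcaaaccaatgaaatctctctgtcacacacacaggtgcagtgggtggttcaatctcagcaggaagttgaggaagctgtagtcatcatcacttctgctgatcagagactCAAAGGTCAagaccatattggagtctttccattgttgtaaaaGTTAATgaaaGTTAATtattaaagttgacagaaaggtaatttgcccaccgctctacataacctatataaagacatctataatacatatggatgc
Aqp8, chr7:123462044-123462293, + strand: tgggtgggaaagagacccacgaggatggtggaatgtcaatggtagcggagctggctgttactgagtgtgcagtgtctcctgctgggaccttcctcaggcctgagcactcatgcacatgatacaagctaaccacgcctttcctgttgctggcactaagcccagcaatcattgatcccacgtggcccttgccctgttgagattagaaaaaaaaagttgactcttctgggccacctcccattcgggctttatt
Car4, chr11:84957504-84957753, + strand: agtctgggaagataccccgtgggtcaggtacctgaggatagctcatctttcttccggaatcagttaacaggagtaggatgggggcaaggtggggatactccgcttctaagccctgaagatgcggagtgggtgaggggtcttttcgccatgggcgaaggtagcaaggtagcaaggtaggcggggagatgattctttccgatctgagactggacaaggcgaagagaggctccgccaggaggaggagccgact
Guca2a, chr4:119637482-119637731, + strand: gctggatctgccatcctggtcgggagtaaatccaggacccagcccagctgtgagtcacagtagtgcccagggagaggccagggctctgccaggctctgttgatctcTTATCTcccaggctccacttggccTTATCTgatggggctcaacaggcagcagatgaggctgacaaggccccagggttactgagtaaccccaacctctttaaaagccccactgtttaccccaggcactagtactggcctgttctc
Muc2, chr7:141690090-141690339, + strand: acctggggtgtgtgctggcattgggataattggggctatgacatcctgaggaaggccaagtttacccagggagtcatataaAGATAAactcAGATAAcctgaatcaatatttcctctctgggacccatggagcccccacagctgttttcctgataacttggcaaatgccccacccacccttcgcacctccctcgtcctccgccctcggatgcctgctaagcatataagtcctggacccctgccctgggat

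Motifs were searched on both strands. The letters TTTATTG stood for CDX factors and GTTAAT for HNF1. For HNF4 they were CAAAGNNCA, and for GATA factors AGATAA. The Slc26a3 promoter held GTTAAT 94 and 84 bases before the start and a CAAAGNNCA match 136 bases before it. Guca2a held the GATA letters on the reverse strand, read as TTATCT, 144 and 120 bases before the start, and Muc2 held them on the forward strand at 169 and 159. Those of Aqp8 and Car4 held none of the 4. Of 287 promoters of genes far above the pool, 9.76% held the HNF4 letters, 9.06% those of HNF1, 11.8% those of GATA and 3.48% those of CDX. For 592 promoters of genes far below the pool the shares were 5.41%, 7.09%, 9.12% and 2.87%, and for the 32851 promoters in that whole set 5.49%, 6.43%, 9.99% and 4.2%. A match is a description of these letters and no evidence of a bound factor.

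All 4 markers of the colon surface were far above the pool on all 6 arrays. Car1, which encodes carbonic anhydrase 1, had log2 ratios of 8.38, 7.50 and 8.36 on the SJW arrays and of 7.61, 7.45 and 8.21 on the control diet arrays. Slc26a3 had 7.33, 6.23 and 6.89 on the SJW arrays and 6.97, 6.61 and 7.65 on the control diet arrays. The diets overlapped for both genes, with SJW replicate 2 and control replicate 2 the lowest arrays of their diets. Aqp8 had 4.60, 3.78 and 4.50 with SJW and 4.18, 4.01 and 4.01 on the control diet. Car4, a membrane-bound carbonic anhydrase, had 3.59, 3.06 and 3.06 with SJW and 3.58, 3.70 and 3.20 on the control diet. The lowest of these 24 values was thus above 3 on the log2 scale. Means over the 6 arrays were 7.92 ± 0.44 for Car1, 6.95 ± 0.50 for Slc26a3, 4.18 ± 0.32 for Aqp8 and 3.37 ± 0.29 for Car4 (SD, n = 6). A limma treat test against a 2-fold difference gave adjusted p-values of 2.61e-07, 4.36e-07, 8.78e-07 and 2.01e-06 for them. The markers and the lists below were chosen with earlier results of these data known. These p-values and the list counts are therefore a description and no independent evidence of the gut region.

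In the same test 1530 genes (5.89%) were higher in saline intestine than in the pool and 3037 (11.7%) lower, with a median log2 ratio of 0.02 over all genes. The counts of each list below are to be read against these shares. A gene was called far above or far below when it passed this test and was over 4-fold from the pool, the same way, on each of the 6 arrays. This held for 437 genes far above (1.68%), 387 of them with a symbol, and for 853 far below (3.28%), 744 with a symbol. Their median log2 ratios were 3.25 and -3.34. The split of higher against lower calls moved with the scaling: 1199 against 3926 with each array centred on its median, 3931 against 5090 with the scanner's own log ratio and 3596 against 4004 with the deposited value table. Of the 25973 genes only 22874 could be tested in the deposited table. Without control saline replicate 2, 1423 genes were far below. The rule is easier to meet with fewer arrays. Each fit with an array left out kept all 437 and all 853 genes, so that such counts only stayed or rose. Lsr and Zdhhc13 were just inside the threshold above, with 2.002 on their lowest array each, and Pllp and Pla2g10 just outside it, with 2 and 1.997. Spag17 and Speer5-ps1 were just inside below at -2.001 each, and Ppp1r14bl and Cchcr1 just outside at -2 and -1.998.

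The genes farthest above the pool were led by epithelial genes. After Car1 came Muc2, the secreted mucin of goblet cells, at 7.84 ± 0.67 (SD, n = 6), Phgr1 at 7.16 ± 0.37, the lectin gene Reg4 at 7.12 ± 0.50 and Slc26a3. Guca2a, the gene of guanylin, a peptide that regulates fluid secretion, was at 6.68 ± 0.37. The mucus lectin gene Zg16, Lypd8, whose product keeps flagellated bacteria from the colon epithelium, the trefoil peptide gene Tff3 and the acute phase gene Saa3 followed at 6.16 ± 0.44, 6.16 ± 0.38, 6.09 ± 0.17 and 6.09 ± 0.36. Gpr17 (6.44 ± 0.47) and Nfatc2 (6.41 ± 0.34) were also among the 12 highest, each on 1 probe only: other probes of the 2 genes were at 1.42 (Gpr17) and at 0.69 and -0.08 (Nfatc2). The 3 probes of Muc2 were at 7.84, 7.02 and 6.55. Of 118 genes far above with several probes, 103 had all probes over 2-fold above the pool.

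**Figure D1:**
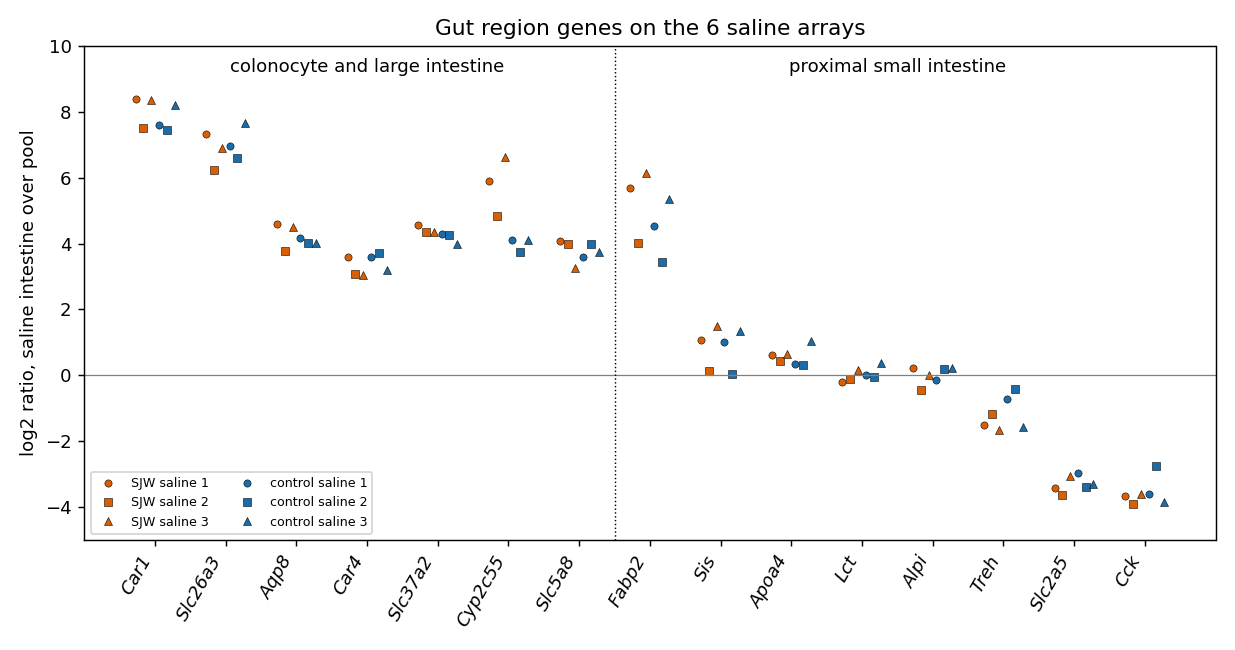
Log2 ratio of saline intestine to the organ pool for genes of gut regions, with 1 point for each of the 6 arrays. The markers Car1, Slc26a3, Aqp8 and Car4 lay above 3 on all 6 arrays, while Lct, Alpi, Apoa4 and Sis lay between -0.44 and 1.48. Fabp2, also of the proximal small intestine list, was far above the pool, and Slc2a5 and Cck were below it. Of the 27 genes of that list 6 were higher than the pool, 3 of them far above, and 4 were lower.

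Genes of the large intestine were higher than the pool in 12 of 20 and lower in 0, and 7 of the 20 were far above, with a list median of 2.44 (5.89% of all genes were higher, and the median over all genes was 0.02). Slc37a2, a sugar phosphate transporter gene, had 4.56, 4.35 and 4.34 with SJW and 4.29, 4.25 and 3.98 on the control diet, a narrow range. Slc5a8, which takes up short-chain fatty acids, had 4.07, 3.99 and 3.25 with SJW and 3.60, 3.997 and 3.74 on the control diet. Cldn8, a claudin of tight sodium barriers, ranged over 2.31 to 3.43. Insl5, a hormone of colonic endocrine cells, ranged over 2.67 to 4.15. Retnlb, a goblet cell gene that bacteria induce, was spread more widely, from 3.00 (SJW 2) to 6.46 (control 3). Cyp2c55 ranged over 3.75 to 6.62, highest on SJW replicate 3. The proton pump gene Atp12a (3.70 ± 1.46), the glycosyltransferase gene B4galnt2 (2.32 ± 0.85) and Hsd11b2, which inactivates glucocorticoids (2.24 ± 0.30), passed the test without being 4-fold above on every array.

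Of the 8 large intestine genes that did not pass, Fxyd4 and Scnn1g, a regulator of the sodium pump and a subunit of the epithelial sodium channel, were below the pool on SJW replicate 3 and at or above it on the other 5 arrays. Fxyd4 had 1.27, 0.99 and -2.81 with SJW and 1.48, 1.90 and 1.32 on the control diet. Scnn1g had 0.02, 0.39 and -2.23 with SJW and 0.60, 0.88 and 1.01 on the control diet. Atp12a was also lowest on that array, at 1.12 against 3.36 to 5.18 on the other 5. Without SJW replicate 3, 11 of the 20 genes were far above in place of 7, with a list median of 2.60. The rule of every array then holds for the other 5 only, so that this count could not fall.

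Proximal small intestine genes were higher in 6 and lower in 4 of 27, with a list median of 0.01. That median was -0.26 with median centring, -0.08 with the scanner's log ratio and -0.02 without SJW replicate 3, so that it has no settled sign. Lct, the gene of lactase, had -0.20, -0.10 and 0.16 with SJW and 0.01, -0.04 and 0.36 on the control diet. Sis, sucrase-isomaltase, had 1.08, 0.14 and 1.48 with SJW and 1.02, 0.04 and 1.33 on the control diet. Alpi, the intestinal alkaline phosphatase, was at 0.01 ± 0.26 and the apolipoprotein gene Apoa4 at 0.56 ± 0.27 (SD, n = 6). These 4 genes, which are among the most abundant of jejunal enterocytes, did not pass the test, and Lct was well above background in red on 3 of the 6 arrays. With the scanner's log ratio Sis was at 1.80 and passed (adjusted p = 0.0205).

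The 6 called higher include genes that are not limited to the proximal gut. Fabp2, an intestinal fatty acid binding protein, ranged over 3.45 to 6.14, Rbp2, a retinol binding protein, over 3.31 to 3.84, and the glucose transporter gene Slc5a1 over 2.02 to 3.23, all far above. The iron exporter gene Slc40a1 (2.73 ± 0.54), Apob (1.67 ± 0.46) and Creb3l3 (1.64 ± 0.56) passed as well. With median centring Apob (1.32, adjusted p = 0.152) and Creb3l3 (1.33, adjusted p = 0.188) did not, nor did Creb3l3 without SJW replicate 1 (adjusted p = 0.0524). Those called lower included Cck, a hormone of the upper gut (-3.56 ± 0.41), the fructose transporter gene Slc2a5 (-3.29 ± 0.25) and the aminopeptidase gene Anpep (-2.09 ± 0.34). Brain and kidney, which also express some of these 3, are in the pool.

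Of 8 ileal genes, the bile acid receptor gene Nr1h4 was higher (2.17 ± 0.47), and Amn and Cubn, which take up vitamin B12 with its carrier and are also renal, were lower (-1.30 ± 0.07 and -2.25 ± 0.46). The bile acid transporter gene Slc10a2 had 0.50, -1.43 and 1.82 with SJW and 0.33, -0.64 and 0.87 on the control diet. Slc51a, which exports bile acids, had 0.40, -1.61 and 1.82 with SJW and 0.20, -0.57 and 0.83 on the control diet, in the same order of arrays. The ileal hormone gene Fgf15 was at 0.23 ± 0.21. For Fabp6, the ileal bile acid binding protein, the pool was not well above background on any array, so that only a bound can be given, the mean intestinal signal over the lowest signal well above background. It was at least 3.305-fold higher (adjusted p = 0.2 by treat). It passed with the replicate number as a block (adjusted p = 0.0109), without control replicate 2 (0.0081), with median centring (0.000277), without background correction (0.00194), with the scanner's log ratio (8.86e-06) and in the deposited table (1.03e-05), so that its call depends on the processing. With the block 2 of the 8 ileal genes were higher. Bounds for dim genes below the pool were formed the same way with the channels exchanged.

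Paneth cell genes were measured for 8 of 14 list members: 1 was higher, 1 lower, and the list median was -0.03 (0.04 with the scanner's log ratio). Lyz1, the Paneth cell lysozyme gene, had -3.08, -3.52 and -3.20 with SJW and -3.25, -1.87 and -2.17 on the control diet, and closely related Lyz2 of macrophages was also below the pool (-2.80 ± 0.83). The alpha-defensin genes Defa20, Defa22, Defa23 and Defa3 averaged 0.06, -0.12, -0.22 and -0.39, and none passed. Defensin sequences are closely related, and a probe may read several of them. Itln1, an intelectin of Paneth and goblet cells, was the 1 called higher, at 3.65 ± 1.58, but without the arrays of brighter pool it was at 2.19 and did not pass (adjusted p = 0.0601). Ang4, an angiogenin of Paneth and goblet cells, did not pass (2.03, adjusted p = 0.0717) but did with the replicate block (0.0474) and without SJW replicate 2 (0.00941).

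Epithelial genes were higher in 29 of 32 and lower in 0, 24 of them far above, with a median of 3.70. The list median of single arrays ranged only from 3.66 to 3.84. Epcam, the adhesion molecule of simple epithelia, had 4.11, 3.95 and 3.97 with SJW and 3.90, 4.12 and 3.93 on the control diet, the narrowest spread of the list (SD 0.10). Vil1, which bundles actin in microvilli, had 4.03, 3.96 and 4.13 with SJW and 3.98, 3.77 and 4.16 on the control diet. Krt19, Krt20 and Krt8, keratins of simple epithelium, were at 4.24 ± 0.22, 4.25 ± 0.32 and 3.73 ± 0.26, and the intestinal antigen gene Gpa33 was at 5.87 ± 0.32. Cdh17, the liver-intestine cadherin, was not well above background in the pool on any array and was at least 50.7-fold higher (adjusted p = 8.96e-06). The 3 epithelial genes that did not pass were Cldn15 (1.15 ± 0.45), Guca2b (0.39 ± 0.37) and Espn (0.37 ± 0.15, but 2.08 and called in the deposited table). Guca2b encodes uroguanylin, the partner of guanylin, and its ratio ranged over 0.02 to 1.01 where that of Guca2a ranged over 6.20 to 7.01.

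Transcription factors of the gut were higher in 14 of 22 and lower in 1, and 10 were far above (median 2.29). Cdx1 and Cdx2, homeobox factors that set intestinal identity, were at 5.72 ± 0.39 and 5.12 ± 0.92. Cdx2 had 6.21, 4.50 and 5.88 with SJW and 4.73, 3.82 and 5.60 on the control diet, with replicate 2 lowest on both diets. Klf5, a factor of proliferating crypt cells, and Klf4, one of differentiated cells, were at 3.71 ± 0.19 and 2.20 ± 0.15. The factor genes Foxa3, Nr5a2 and Foxa1 were at 3.63 ± 0.86, 3.47 ± 0.67 and 3.25 ± 0.32, and Hnf4a was at 2.39 ± 0.11. Isx, a repressor of vitamin A uptake, had 5.10, 1.57 and 5.56 with SJW and 3.21, 0.46 and 5.20 on the control diet. Its call was lost without SJW replicate 1 (adjusted p = 0.105) or 3 (0.1) and without control replicate 1 (0.0967) or 3 (0.0713). Pdx1, Onecut2 and Gata4 of the duodenum and pancreas were at 0.67 ± 0.39, -0.78 ± 0.35 and -0.62 ± 0.24 and did not pass. With the scanner's log ratio Pdx1 passed as higher (1.99, adjusted p = 0.00264) and Onecut2 as lower (-1.96, adjusted p = 3.96e-05). Sox2, of the foregut and of brain, was not well above background in red on any array and at least 3.39-fold lower (adjusted p = 0.0105).

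Goblet cell genes were higher in 16 of 17, 13 of them far above (median 3.77). Besides Muc2, Zg16 and Tff3, Spink4 (5.95 ± 0.37), Agr2, a disulfide isomerase needed for mucin folding (5.28 ± 0.41), and Clca1 (4.22 ± 0.21) were far above. So were Fcgbp, a mucus network protein (3.48 ± 0.23), and the factor genes Atoh1 and Spdef, which drive secretory and goblet cell fate (3.77 ± 0.80 and 2.89 ± 0.60). Creb3l4 was the 1 called lower, at -1.90 ± 0.31. Arrays differed more for this list than for the epithelium as a whole, with medians of 4.55, 3.30 and 4.17 with SJW and 3.58, 3.55 and 4.15 on the control diet.

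Enteroendocrine genes split: 5 of 19 were higher and 2 lower (median 1.01). Gcg, which encodes proglucagon, ranged over 3.76 to 5.76, Pyy, peptide YY, over 3.33 to 4.22, and Insl5 was given above. All 3 belong to the L cells of the distal gut and were far above the pool. Pax4 and Sct were higher at 2.44 ± 1.68 and 1.88 ± 0.90. The call of Pax4, which belongs to the block of genes high on SJW replicate 3, was lost without control replicate 1 (adjusted p = 0.0585). That of Sct was lost without SJW replicate 1 (0.117) or 3 (0.114) and without control replicate 1 (0.108) or 3 (0.106). Cck and Ghrl, hormones of the upper gut, were lower (-3.56 ± 0.41 and -1.78 ± 0.27), and Gip, of the duodenum, was at 0.71 ± 0.30 without a call. The general endocrine marker gene Chga was at 1.14 ± 0.44, also without a call. Of 7 tuft cell genes 0 passed (smallest adjusted p = 0.776, for Trpm5, by treat). Trpm5, at 1.27 here, passed with median centring (1.65, adjusted p = 0.031), with the scanner's log ratio (3.99, adjusted p = 4.51e-06) and in the deposited table (3.99, adjusted p = 5.72e-06).

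Crypt and stem cell genes were higher in 4 of 15 (median 0.70): Slc12a2, the chloride-loading cotransporter of crypt cells (2.45 ± 0.21), Rnf43 (1.98 ± 0.42), Sox9 (1.95 ± 0.20) and Prom1 (1.95 ± 0.85). In the deposited table Sox9 did not pass (1.25, adjusted p = 0.108). The call of Prom1 was lost without SJW replicate 1 (adjusted p = 0.0508) or control replicate 1 (0.0672). Lgr5, the stem cell receptor gene, had 1.85, 1.00 and 2.00 with SJW and 0.55, 0.27 and 0.88 on the control diet. Over all genes 0 passed the test of the diet. Lgr5 was not called against the pool, but was with the scanner's log ratio (1.90, adjusted p = 0.00189). Proliferation genes were higher in 2 and lower in 4 of 25 (median -0.22), close to the pool, which holds embryo, testicle, spleen and thymus. Mki67 was higher (1.73 ± 0.21), but not with median centring (1.39, adjusted p = 0.104), while Ccnb2 (-1.60 ± 0.20) and Aurka (-1.47 ± 0.21) were lower. Mcm7 was lower (-1.25 ± 0.14), and its call was lost on leaving out SJW replicate 1, 2 or 3 (adjusted p = 0.096, 0.102 and 0.0939) or control replicate 1 or 3 (0.121 and 0.0565). Ccna2 was higher (1.37 ± 0.39) and Ccnb1 lower (-1.52 ± 0.40), and both calls were lost without SJW replicate 1 (adjusted p = 0.0954 and 0.106), SJW replicate 3 (0.112 and 0.0794), control replicate 1 (0.0754 and 0.111) or control replicate 3 (0.0928 and 0.0873).

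**Figure D2:**
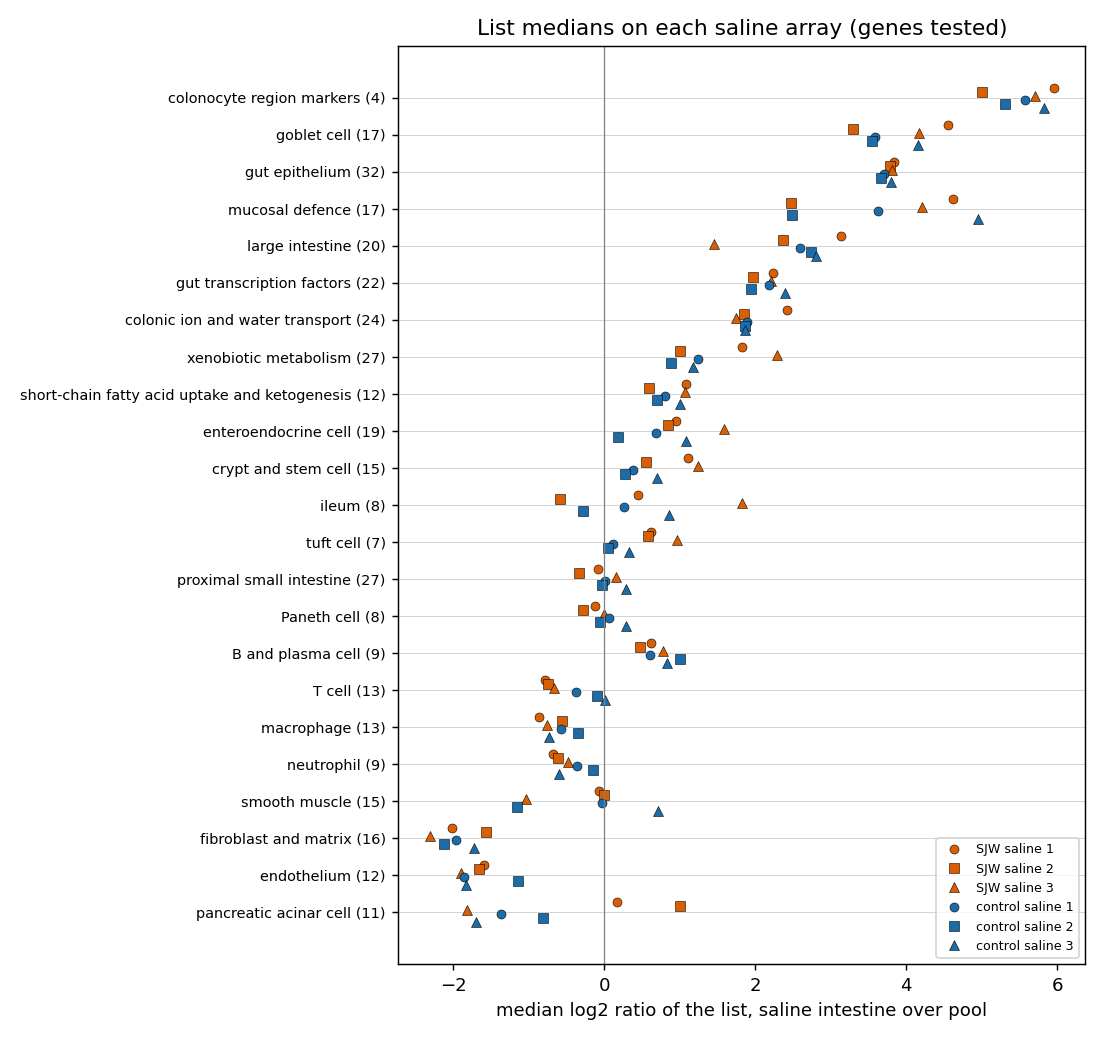
Median log2 ratio to the pool of each gene list, with 1 point for each of the 6 saline arrays. Epithelial and goblet cell lists lay between 3.30 and 4.55 on every array, and smooth muscle between -1.15 and 0.71. Numbers in parentheses are genes tested.

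Genes of ion and water transport in the colon were higher in 14 of 24 and lower in 0 (median 1.94). Slc26a2, a sulfate transporter, had 5.11, 4.57 and 4.35 with SJW and 4.42, 4.75 and 4.82 on the control diet, far above the pool on each. The sodium and proton exchanger gene Slc9a2 was at 3.10 ± 0.72, the carbonic anhydrase gene Car2 at 2.29 ± 0.34, Aqp4 at 2.17 ± 0.37 and the potassium channel subunit gene Kcne3 at 1.81 ± 0.07. The mineralocorticoid receptor gene Nr3c2 was at 2.08 ± 0.20, next to Hsd11b2, which guards that receptor. The epithelial sodium channel genes Scnn1a, Scnn1b and Scnn1g averaged 0.93, 1.14 and 0.11, and 0 of the 3 passed. The sodium pump subunit gene Atp1b1 was at 0.50 ± 0.18 without a call, and the pool holds kidney, which is rich in these transporters.

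Of 12 genes of short-chain fatty acid uptake and ketogenesis, 3 were higher: Slc5a8, the monocarboxylate transporter gene Slc16a1 (2.38 ± 0.16) and Acads, the short-chain acyl-CoA dehydrogenase (2.11 ± 0.31).

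Although liver is in the pool, genes of xenobiotic metabolism were higher in 13 of 27 and lower in 1, with 9 far above (median 1.71). Sult1b1, a sulfotransferase, had 6.43, 5.69 and 6.38 with SJW and 5.51, 5.69 and 6.58 on the control diet. Cyp3a13 was at 5.53 ± 0.50, whereas Cyp3a11 and Cyp3a25, family members that are abundant in liver, were at 0.73 ± 0.43 and 0.45 ± 0.48 without a call. The carboxylesterase genes Ces2e, Ces2a and Ces2c were at 4.996 ± 0.78, 4.57 ± 1.15 and 4.06 ± 0.47. Ces2a had 6.20, 4.07 and 5.82 with SJW and 3.38, 4.09 and 3.85 on the control diet. Abcb1a, a drug efflux pump, was at 3.89 ± 0.88, and Nr1i2, the pregnane X receptor, at 3.22 ± 0.46. Cyp2b10 was the 1 called lower (-2.20 ± 0.71). Cyp and Ces2 genes have close relatives whose probes may share signal.

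Mucosal defence genes were higher in 12 of 17 and lower in 1 (median 3.64). Dmbt1, a mucosal scavenger protein, was at 5.43 ± 0.48, Saa1 at 4.67 ± 0.35, Pglyrp1, a peptidoglycan recognition protein, at 3.55 ± 0.35 and Pigr, which carries IgA across the epithelium, at 2.56 ± 0.41. Reg3b, a lectin that bacteria induce, had 5.01, 0.91 and 6.40 with SJW and 4.98, 2.35 and 7.42 on the control diet, the widest range of the list. Its call was lost without SJW replicate 1 (adjusted p = 0.0576) or control replicate 1 (0.0535). Lcn2, which withholds iron from bacteria, was the 1 called lower, with -5.32, -5.31 and -5.40 with SJW and -5.08, -3.91 and -5.43 on the control diet. All 6 values were thus far below the pool, with control replicate 2 the highest.

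Smooth muscle genes were not called, 0 of 15 (smallest adjusted p of 1 by treat), with a median of -0.15. Their arrays differed widely: the list median was -0.07, 0.00 and -1.03 with SJW and -0.03, -1.15 and 0.71 on the control diet. Control replicate 3 was highest for 14 of the 15 genes, and SJW replicate 3 or control replicate 2 lowest for all 15 (8 and 7). Myh11, the smooth muscle myosin, had 0.81, 0.79 and -1.12 with SJW and 0.95, -1.49 and 1.63 on the control diet. Des, desmin, had 0.33, 0.58 and -1.73 with SJW and 0.70, -1.38 and 1.55 on the control diet, in much the same order. Matrix genes were lower in 10 of 16 and higher in 0, 5 of them far below (median -1.98), led by Col1a1 (-3.50 ± 0.36) and Sparc (-3.19 ± 0.37). Endothelial genes were lower in 8 of 12, with Egfl7 at -2.79 ± 0.23 and Cdh5 at -2.25 ± 0.46.

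Neuron and glia genes were lower in 4 of 11, among them Uchl1 at -3.38 ± 0.34, Tubb3 at -2.28 ± 0.16 and Elavl4 at -1.72 ± 0.50, all abundant in brain. Vip, of enteric neurons, was at 0.42 ± 0.53 without a call. Of 2 genes of the pacemaker cells of Cajal, Ano1 was higher (2.84 ± 0.80) and Etv1 lower (-1.71 ± 0.37). Among B cell genes Ms4a1 and Cd79a had their highest values on control replicates 2 and 3. Ms4a1 had 2.08, 1.21 and 1.23 with SJW and 1.14, 3.38 and 3.17 on the control diet, and Cd79a 1.57, 1.20 and 0.95 with SJW and 1.35, 2.69 and 2.55 on the control diet. The call of Ms4a1 (2.03 ± 1.02) was lost without SJW replicate 1 (adjusted p = 0.11), 2 (0.0589) or 3 (0.0622) and without control replicate 2 (0.0619) or 3 (0.0898). That of Cd79a (1.72 ± 0.73) was lost without SJW replicate 1 (adjusted p = 0.0714), SJW replicate 2 (0.0502) or control replicate 3 (0.056). Derl3, of plasma cells, was the 1 of these 9 genes called lower (-1.63 ± 0.36).

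Of 13 T cell genes 2 were lower (Itgae at -2.64 ± 0.56 and Cd3d at -1.89 ± 0.58) and 0 higher. Of 13 macrophage genes 1 was higher, Cd14 at 2.62 ± 0.24, and Lyz2 and Aif1 (-2.93 ± 0.19) were lower. Neutrophil genes were lower in 3 of 9, among them Ltf (-3.86 ± 0.43), and mast cell genes in 2 of 8, Gata2 (-2.95 ± 0.52) and Hdc (-2.37 ± 0.70). Over all genes 5.89% were higher and 11.7% lower, and the T cell and macrophage counts lie near these shares. All pool comparisons of immune genes set intestine against a mixture with spleen and thymus.

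**Figure D3:**
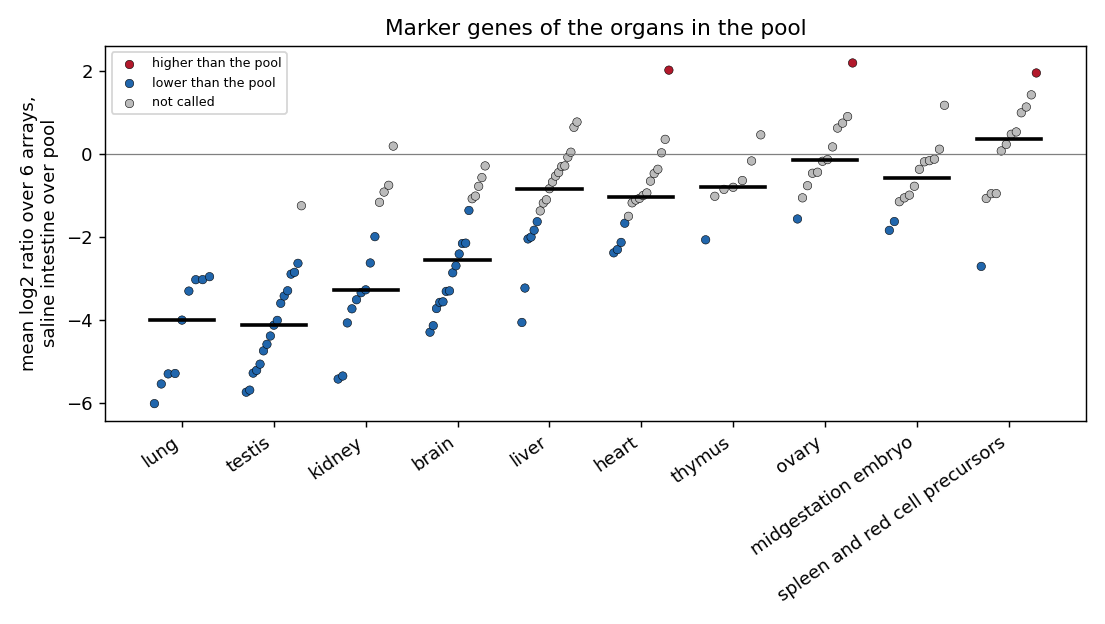
Log2 ratio of saline intestine to the pool for genes of the organs in the pool, with 1 point per gene as the mean of 6 arrays and a bar at each list's median. All 9 lung genes were far below the pool, as were 14 of 17 testis genes, whereas the ovary, thymus and spleen lists had medians of -0.15, -0.79 and 0.36.

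Many of the named genes farthest below the pool belong to its organs, and others are given further on. Sftpc, the lung surfactant protein, had -5.80, -6.58 and -5.66 with SJW and -6.11, -6.20 and -5.68 on the control diet, a mean of -6.01 ± 0.36. Lung genes were lower in 9 of 9, all far below (median -3.99, with 11.7% of all genes lower and 3.28% far below). Testis genes were lower in 16 of 17 and far below in 14 (median -4.12). Akap4, a sperm tail protein, was at -5.73 ± 0.55 and Crisp2 at -5.68 ± 0.70, and the histone replacing genes Prm2 and Tnp1 at -4.58 ± 0.46 and -5.20 ± 0.47. Kidney genes were lower in 9 of 13, with 8 far below (median -3.26), among them Kap (-5.41 ± 0.23) and Umod, the most abundant protein of urine (-5.34 ± 0.28). Brain genes were lower in 13 of 18, with 8 far below (median -2.54), among them the myelin gene Mbp (-4.29 ± 0.45, with another probe at 1.15) and the glutamate transporter gene Slc1a2 (-4.13 ± 0.48). Without SJW replicate 3, and so with an array fewer to pass, 16 testis genes were far below.

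Fewer genes of the other pool organs were called, where over all genes 5.89% were higher and 11.7% lower. Liver genes were lower in 6 of 19 (median -0.83). Hp, haptoglobin, had -4.27, -3.80 and -4.62 with SJW and -4.00, -3.30 and -4.31 on the control diet, and Alb, albumin, had -3.89, -3.04 and -4.08 with SJW and -2.93, -1.90 and -3.49 on the control diet. Both were below the pool on all 6 arrays, in tissue whose extraction protocol names liver. Heart genes were lower in 4 of 16 and higher in 1, Nppb at 2.03 ± 0.42, whose ratio was -1.60 in the deposited value table. With the mean of its probes in place of the brightest, Nppb was at 0.45 and did not pass, so that its call depends on the probe. Spleen and red cell genes were higher in 1 of 12, Cd5l (1.96 ± 0.11), and lower in 1, Alas2 (-2.70 ± 0.55). Of 12 ovary genes Zp3 was higher (2.20 ± 1.09) and Star lower (-1.56 ± 0.55). The call of Zp3 was lost without SJW replicate 1 (adjusted p = 0.0806), 2 (0.05) or 3 (0.114) or control replicate 1 (0.0652), and that of Star without SJW replicate 1 (0.116) or 3 (0.114) or control replicate 1 (0.128) or 3 (0.0951). Thymus genes were lower in 1 of 7, Tcf7 (-2.06 ± 0.50), and embryo genes in 2 of 12, Igf2bp3 (-1.83 ± 0.55) and Meg3 (-1.62 ± 0.14). Igf2bp3 did not pass in the deposited table (-1.40, adjusted p = 0.294).

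Further genes far below were Kdm8 (-5.92 ± 0.24), the plasma glutathione peroxidase gene Gpx3 (-5.73 ± 0.44), the sodium pump regulator gene Fxyd2 (-5.58 ± 0.31), Ms4a19 (-5.54 ± 0.46) and Oaz3 (-5.52 ± 0.19), of which Gpx3 and Fxyd2 are abundant in kidney. Gbp9 (-5.88 ± 0.60) and Klrb1c (-5.60 ± 0.81) each rest on 1 probe, since other probes were at -0.10 (Gbp9) and 0.32 (Klrb1c). In all 189 of 245 genes far below with several probes had all of them over 2-fold below the pool.

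Genes of tissues that lie next to the gut were examined as well. Pancreatic acinar genes were called in 1 of 11, Cela1, which intestine also expresses. The list median was 0.17, 1.01 and -1.81 with SJW and -1.37, -0.81 and -1.69 on the control diet. SJW replicate 2 was highest for 10 of the 11 genes. Prss2, a trypsinogen, had -0.17, 1.01 and -2.89 with SJW and -2.40, -1.42 and -2.60 on the control diet, and Pnlip, pancreatic lipase, had -0.21, 1.07 and -1.81 with SJW and -2.50, -1.37 and -2.65 on the control diet. SJW replicates 1 and 2 were thus above the other 4 for both enzymes, and the part of pancreatic RNA in other differences between arrays was not tested. Stomach genes were called in 0 of 9 (smallest adjusted p of 1 by treat, list median -0.11). Adipocyte genes were lower in 1 of 7, Cfd (-2.09 ± 0.72), and skeletal muscle genes in 3 of 10. Mesothelial genes were lower in 3 of 4: Wt1 was at least 4.01-fold and Upk3b at least 3.02-fold lower, neither well above background in red on any array, and Msln was at -1.47 ± 0.45. The call of Msln was lost without SJW replicate 1 (adjusted p = 0.0586), control replicate 1 (0.0684) or control replicate 3 (0.0509), and that of Upk3b without SJW replicate 1 (0.157) or 3 (0.155) or control replicate 1 (0.129) or 3 (0.126).

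**Figure D4:**
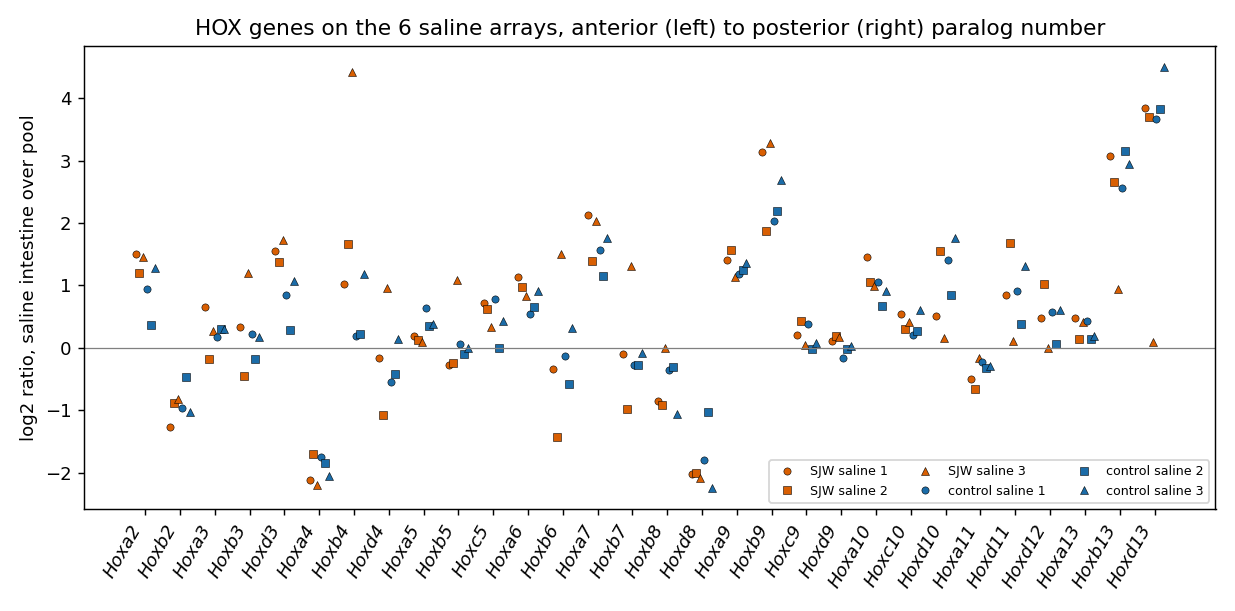
Log2 ratio to the pool of 30 HOX genes on the 6 saline arrays, ordered by paralog group. On SJW replicate 3 Hoxd13 was at 0.09 and Hoxb13 at 0.94, against 2.56 to 4.50 on the other 5 arrays.

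HOX genes, which keep a record of position along the body axis, were higher in 5 and lower in 2 of 30 (median 0.34). Hoxd13, of the most posterior group, had 3.84, 3.71 and 0.09 with SJW and 3.66, 3.83 and 4.50 on the control diet. Hoxb13 had 3.08, 2.66 and 0.94 with SJW and 2.56, 3.16 and 2.95 on the control diet. For both genes SJW replicate 3 lay below the other 5 arrays, whose diets overlapped. Their means were 3.27 ± 1.59 and 2.56 ± 0.83 (adjusted p = 0.00708 and 0.00231). Hoxb9, Hoxa7 and Hoxa9 were higher at 2.54 ± 0.59, 1.67 ± 0.38 and 1.31 ± 0.16, and Hoxa4 and Hoxd8 lower at -1.95 ± 0.20 and -1.87 ± 0.43. Hoxa7 (1.303, adjusted p = 0.25) and Hoxa9 (1.02) did not pass with median centring, nor Hoxa9 without SJW replicate 1 (0.06), SJW replicate 2 (0.0527) or control replicate 3 (0.055). A second probe of Hoxd13 was at 0.65 on SJW replicate 3. Among the 9 genes of paralog groups 10 to 13 SJW replicate 3 was lowest in 5 and highest in 1, with a median difference of -0.57 from the median of the other 5 arrays. Among the 21 genes of groups 1 to 9 it was lowest in 3 and highest in 9, with a median difference of 0.25.

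Within HOX cluster B, SJW replicate 3 was highest for 7 of 9 genes, Hoxb3 to Hoxb9, and lowest for 1, Hoxb13. In the other clusters it was highest for 1 of 10 (A), 0 of 3 (C) and 2 of 8 (D). Hoxb6 had -0.33, -1.43 and 1.50 with SJW and -0.13, -0.59 and 0.31 on the control diet. Hoxb7 had -0.10, -0.97 and 1.31 with SJW and -0.27, -0.28 and -0.08 on the control diet. Slc10a2 and Slc51a were also highest and Atp12a, Fxyd4 and Scnn1g lowest on this array. These genes were put side by side after their values were seen, and no test was made of them as a set. In the whole lists SJW replicate 3 was highest for 4 of 8 ileal genes and lowest for 0. It was lowest for 12 and highest for 3 of 20 large intestine genes, and lowest for 1 and highest for 0 of the 4 region markers. Hoxb4 (4.42 on this array, against 0.18 to 1.66) is counted in the 7 of cluster B and in the 9 of groups 1 to 9. It also belongs to the block described next.

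SJW replicate 3 had 249 genes over 2 log2 units above the median of the other 5 saline arrays, against 1 to 99 such genes on the other arrays, the most on SJW replicate 2. Of the 249, SJW replicate 2 was second highest in 197. Of 117 other probes of these genes only 10 were shifted by over 2 units and 16 by over 1. Over the 239 of them measured in all 18 arrays the median log2 ratio was 1.39, 2.39 and 4.19 with SJW and 0.45, 0.58 and 1.34 on the control diet after saline, and 0.01 to 1.63 on the 12 AOM arrays. The block was picked from these values and gets no test. It holds 19 genes of the lists, among them Hoxb4, Dclk1, Cpa1, Fn1 and Pgk2, whose SJW 3 values were not read as those of their cell types, and Isx and Cyp2c55. Dclk1, a tuft cell marker, had -1.49, 0.58 and 2.40 with SJW and -1.89, -1.01 and -1.41 on the control diet.

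The 2 diets were compared over all genes with 3 arrays each. By limma 0 genes differed (0%), with 2109 (8.12%) at an unadjusted p under 0.05 and a smallest adjusted p of 0.587. With the slide, which equals the replicate number, as a block, 0 differed as well. There 4452 of 25973 genes had an unadjusted p under 0.05, and the smallest adjusted p was 0.153. The profile above is given for both diets together. With 3 arrays each, differences between the diets can be missed, so this does not show that the diets are alike.

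**Figure D5:**
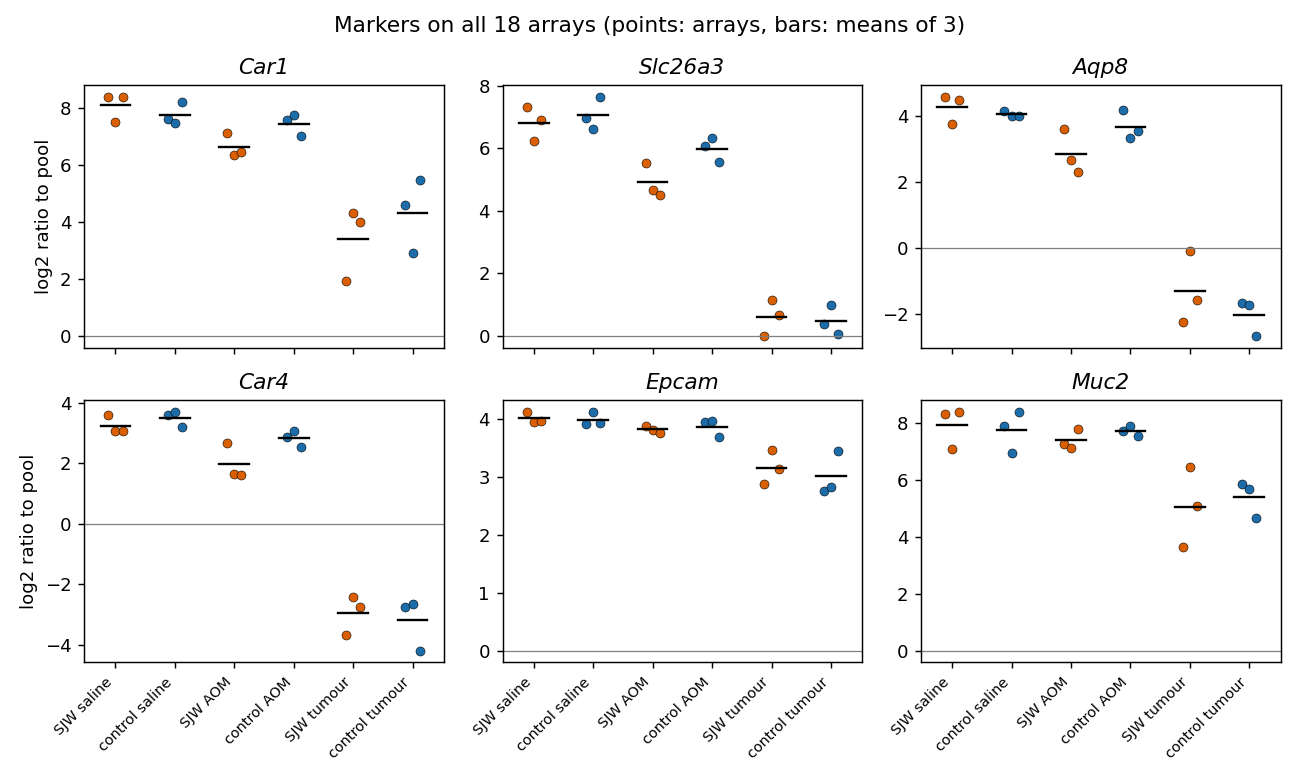
Log2 ratio to the pool of region and cell type genes in all 6 groups, with 1 point per array and a bar at the mean of each group of 3. Car4 lay at 3.06 to 3.70 on saline arrays and at -4.19 to -2.42 in tumours, and Epcam lay above 2.7 in every group.

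To see how far this profile holds in the rest of the series, saline arrays were set against AOM arrays of non-tumour tissue and against tumours, with differences given as saline minus the other group. Against AOM non-tumour tissue 561 genes were higher in saline (2.07%) and 819 lower (3.03%). With the replicate number as a block 859 differed in place of 1380, in a fit of the 12 non-tumour arrays without the tumour arrays. Slc37a2 had 4.56, 4.35, 4.34, 4.29, 4.25 and 3.98 in saline and 2.84, 1.81, 1.72, 2.15, 2.52 and 1.40 in AOM tissue (SJW arrays first). It was higher in saline by 2.22 ± 0.205 (SE; adjusted p = 0.000102), with no overlap. Slc26a3 was higher by 1.50 ± 0.27 (adjusted p = 0.00631), while Car4 (0.98 ± 0.28, adjusted p = 0.0575), Aqp8 (0.90 ± 0.33, adjusted p = 0.124) and Car1 (0.88 ± 0.42, adjusted p = 0.252) did not pass. Defa22 and Lyz1 were lower in saline, with differences of -2.67 ± 0.34 (adjusted p = 0.00116) and -1.16 ± 0.28 (adjusted p = 0.0269). Of 15 smooth muscle genes 13 were lower in saline than in AOM tissue, with a median difference of -2.03 (0.01 over all genes). Matrix genes were lower in 13 of 16, with a median difference of -1.22, and Paneth genes in 3 of 8. Xenobiotic genes were higher in saline in 9 and lower in 0 of 27, and ion and water transport genes higher in 6 and lower in 0 of 24. The part of muscle and matrix RNA in the other differences was not tested.

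Without the 6 arrays with a brighter pool channel, 10 genes differed between saline and AOM tissue, with 2 saline arrays left. Leaving out 1 array gave 593 (without control AOM replicate 1) to 1498 genes. Of the 6 arrays with a brighter pool channel, 4 were saline arrays, and the others were control AOM replicate 2 and control tumour replicate 3. Pool brightness was thus unevenly spread over saline and AOM arrays and cannot be fully told apart from the treatment. Its part in the differences between saline and AOM tissue was not tested.

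Against tumours, which lay on other slides and were scanned on another day, so that slide and tissue cannot be told apart, 8281 genes were higher in saline (30.6%) and 5282 lower (19.5%). Without the arrays of brighter pool 8716 differed in place of 13563. Car4 had 3.59, 3.06 and 3.06 with SJW and 3.58, 3.70 and 3.20 on the control diet in saline, and -3.67, -2.42 and -2.73 with SJW and -2.74, -2.64 and -4.19 on the control diet in tumours. It was higher in saline by 6.43 ± 0.28 and Slc26a3 by 6.40 ± 0.27 (SE; adjusted p = 5.61e-10 each). Aqp8 was higher by 5.84 ± 0.33 (adjusted p = 2.35e-09), Car1 by 4.06 ± 0.42 (adjusted p = 1.33e-06) and Muc2 by 2.61 ± 0.40 (adjusted p = 6.86e-05). The epithelial gene Epcam was higher by 0.92 ± 0.12 (adjusted p = 2.12e-05), and the share of epithelium in the tissue was not measured. Hoxd13 averaged 3.27 in saline and did not pass the test against tumours (0.80 ± 0.65, adjusted p = 0.32). Without SJW saline replicate 3 it averaged 3.89 in saline and 2.47 in tumours and passed (1.42 ± 0.53, adjusted p = 0.0397).

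Against tumours, goblet cell genes were higher in saline in 17 of 17 (median difference 2.62), enteroendocrine genes in 16 of 19, large intestine genes in 16 of 20 (2.05) and xenobiotic genes in 23 of 27 (2.68). Over all genes 30.6% were higher and 19.5% lower in saline, with a median difference of 0.08. Epithelial genes were higher in saline in 29 and lower in 1 of 32, with a smaller median difference of 1.33. Proliferation genes were higher in 0 and lower in 20 of 26 (-0.46), crypt and stem cell genes higher in 1 and lower in 11 of 15 (-0.93), and mast cell genes lower in 9 of 10. Paneth genes were lower in 6 of 8 (-1.94), with Defa22 at a difference of -4.23 ± 0.34 (SE; adjusted p = 8.35e-08).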

How the data were processed

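Each array held Cy5-labelled intestinal RNA and Cy3-labelled pooled RNA. Per the file headers, the authors scanned and extracted them with Agilent Feature Extraction 10.10.1.1 (protocol GE2_1010_Sep10). The deposited scanner files give each spot's median red and green intensity and its local background intensity, not normalized. They also give a log10 ratio of red over green, which per the file headers is background-subtracted and dye-normalized. The deposited value table was found to hold the log2 of the same ratio, not centred, with medians of 0.146 to 0.226 on the saline arrays. The dyes follow the labels.

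From the median intensities, background was corrected with normexp (offset 50), ratios were loess-normalized within each array with control spots at weight 0, and flagged outlier spots (0.401% to 0.505% on saline arrays) were left out (limma 3.58.1 in R 4.3.3). Of 41174 probes, 27050 had 1 symbol and 14124 none. Probes were kept (34291) if their red signal passed the background flag on each array of either diet, or their green signal on all 6, and the brightest probe stood for a gene. The 6 arrays were fitted with 2 diet means and tested with treat against 2-fold, with Benjamini-Hochberg adjustment at 0.05. Diets, and saline against AOM tissue and tumours over 27058 genes in all 18 arrays, were tested with lmFit and eBayes. Fits were tested on simulated data.

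Replicate numbers coincide with slides among non-tumour arrays. Deviations of same-numbered saline arrays correlated at 0.174, 0.459 and 0.388, so the numbers were taken to pair the arrays, and a fit with the number as a block was an alternative. The number of arrays limits the precision. Other alternatives changed the normalization, background, filter, probe choice, thresholds and arrays.

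Genes named are the 4 region markers, the 12 highest and 12 lowest mean ratios among genes far above or below (without accession, RIKEN, Gm or LOC names), the 5 list members with the largest absolute ratio and up to 3 called against their list's direction, with further members to account for a list. The 42 lists hold 623 symbols. Members and lists were chosen with earlier results of these data known. Some genes of the lists are counted but not reported here by name.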

Additional observations from a re-analysis of the deposited data

Results flagged for a closer look

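For 251 gene values and list medians, the highest and lowest of the 6 saline arrays were checked for a gap to the next array that is wide for the range of the 6. This held for 34 of them (13.5%), where chance gives about 1 in 20, and genes of 1 array are not independent. Control saline replicate 2 was the outlying array for 25, SJW saline replicate 3 for 5, SJW saline replicate 2 for 3 and SJW saline replicate 1 for 1.

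Control saline replicate 2 had the ratio nearest to 0 for each of its 25 values, many of them from organs of the pool. For Gbp9 it was at -4.69, against -6.29 to -5.93 on the other 5 arrays, and for Lcn2 at -3.91, against -5.44 to -5.08. Testis genes Akap4 and Crisp2 were at -4.63 and -4.32, and Klrb1c was at -4.07. Brain genes Slc1a2 and Slc17a7 were at -3.20 and -2.63, the kidney gene Slc22a6 at -2.43 and the lung gene Sftpd at -2.97. The median of all lung genes was -3.03, against -4.32 to -3.94. Cck was at -2.77, Cubn at -1.38, the liver gene Apoh at -0.78 and Hoxd8 at -1.03. Eng and Cdh5 of endothelium were at -1.67 and -1.34, Derl3 at -0.92, S100a9 at -1.48, Gata2 at -1.93, Hdc at -1.01, Msln at -0.62 and Alas2 at -1.63. The ovary genes Star, Gdf9 and Zp2 were at -0.53, -0.27 and 0.15, the last against 0.83 to 1.22 on the other arrays. This array had the highest red signal over background of the 6, at 5.92, against 2.34 to 4.54; the part of this in the values was not tested.

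SJW saline replicate 3 was low for Hoxd13 (0.09, against 3.66 to 4.50), Hoxb13 (0.94, against 2.56 to 3.16) and Cela1 (2.48, against 4.67 to 5.07). Its median of the 2 genes of Cajal cells was -0.38, against 0.49 to 1 on the other arrays, and Creb3l4 was at -1.30, against -2.14 to -1.88. SJW saline replicate 2 was lowest for Umod (-5.91) and Slc34a1 (-4.46), both of kidney, and highest for Col6a1 (-2.78). SJW saline replicate 1 had the highest median of colonic ion and water transport genes, at 2.42, against 1.74 to 1.89.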

How the results depend on the processing

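Of 3050 values of 209 named genes under other settings, 2856 kept their direction and side of the threshold, 82 lost and 104 gained a call, and 8 changed sign. The median ratio of all genes shifted by -0.147 with median centring and by 0.147 with the deposited value table. Far above the pool (437 genes) were 251 with median centring, 965 with the scanner's log ratio, 806 with the deposited table and 169 at 8-fold. Far below (853) were 1531, 2540, 1841 and 277 under the same 4 settings, 1374 without background correction and 1516 without arrays of brighter pool. Higher genes (1530) numbered 3931 with the scanner's log ratio, 3596 with the deposited table, 10453 tested against no change and 470 against 4-fold. Lower genes (3037) numbered 5090 with the scanner's log ratio, 10181 against no change and 1039 against 4-fold. The deposited table allowed 22874 genes to be tested in place of 25973. Its far genes included 284 of the 437 far above and 317 of the 853 far below in the main setting. Those of the scanner's log ratio included 436 and 842. Between saline and AOM tissue (1380) there were 853 with median centring, 2669 with the scanner's log ratio, 2156 with the deposited table, 2855 without background correction, 859 with the replicate block and 10 without arrays of brighter pool. Between saline tissue and tumours (13563) there were 8716 without those arrays. For saline against AOM tissue the block was fitted on the 12 non-tumour arrays only. Among counts over all genes at the adjusted threshold, the replicate block moved no other by over 1.5 times. In the lists it gave 2 ileal, 2 Paneth and 2 spleen genes higher in place of 1 each, 1 mast cell gene higher in place of 0, and 3 adipocyte and 5 skeletal muscle genes lower in place of 1 and 3. Leaving out 1 array gave 855 to 1423 genes far below and 593 to 1498 between saline and AOM tissue. The 1423 came without control saline replicate 2 and the 593 without control AOM replicate 1. Counts of genes far from the pool did not fall on leaving out arrays, since the rule then asks for fewer arrays. The SJW 3 setting and those leaving out AOM or tumour arrays were chosen after seeing the data. Sign changes were seen for Pgc (0.19) and Atp4a (0.094) with median centring, Klrb1c (0.70) and Nppb (-1.60) with the deposited table, and Klrb1c (0.32) with the filter on both channels. Tpm2 was at 0.30 without arrays of brighter pool and ranged over -0.71 to 0.10, and Dclk1 over -0.94 to 0.028, on leaving out 1 array. Medians of the proximal small intestine (-0.26 to 0.62), ileum (-0.14 to 0.65), Paneth (-0.13 to 0.52), proliferation (-0.60 to 0.34), smooth muscle (-0.33 to 0.04), neutrophil (-1.15 to 0.52) and ovary (-0.26 to 0.63) lists took both signs. Without the arrays of brighter pool Amn (adjusted p = 0.109), Apob (0.31), Aurka (0.226), Ccnb2 (0.0793), Igf2bp3 (0.176), Pax4 (0.0888) and Reg3b (0.231) also lost their calls. The causes were not tested. Genes dim in a channel have bounds only.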

Other observations

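Whole gene families, which include members of the lists above, were called in both directions. Over all genes 5.89% were higher, 11.7% lower, 1.68% far above and 3.28% far below. Of 344 solute carrier genes 41 were higher and 56 lower than the pool, 18 far above and 16 far below. Cytochrome P450 genes were higher in 18 and lower in 12 of 77. Keratins were higher in 6 and lower in 4 of 41, and claudins higher in 6 and lower in 4 of 25. Collagens were higher in 1 and lower in 11 of 42. Histone genes were higher in 3 and lower in 9 of 48, with 7 far below. Cytosolic ribosomal protein genes had 1 called each way of 78, with a median log2 ratio of 0.51.

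Olfactory receptor genes were higher in 15 and lower in 1 of 426 (median 0.40), and 4 were far above the pool. These are smaller shares than over all genes (5.89% higher, 11.7% lower and 1.68% far above). Olfr487 had 5.71, 5.08 and 5.23 with SJW and 5.29, 5.39 and 5.81 on the control diet, on its 1 probe. Olfr427 averaged 5.24 ± 1.71 (SD, n = 6). These are families of closely related genes, for which a probe's signal cannot be assigned to 1 member with certainty.

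Some genes far from the pool had probes that differed widely. Senp8 averaged 5.58 on 1 probe and 0.37 on the other. Mbp averaged -4.28 and -4.32 on 2 probes and 1.15 on another. The probes of Syt1 ranged from -3.74 to -0.83. The second probe of Gpr17, at 1.42 on average, had 0.71, 2.50 and 3.83 with SJW and 0.33, 0.66 and 0.50 on the control diet, where the first ranged over 5.68 to 6.92.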
